A study of Canis lupus familiaris with 17 samples.

Results

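The genes CD28, CTLA4, ICOS, CD80 and CD86 encode the classical costimulatory receptors of T cells and the ligands of CD28 and CTLA4. They were followed through 17 canine soft tissue sarcomas, of which 10 had been injected with cytokines. The members were the endogenous probes whose name equals one of these 5 symbols, which is 5 of the 780 endogenous probes of the nCounter Canine IO panel. The rule reads probe names and no measured value, and the genes were picked with earlier results of these data known. The panel counts colour-barcoded probes hybridized to RNA, with no amplification step.

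A T cell needs a signal from its antigen receptor and a costimulatory signal, and CD28 is the receptor that gives the costimulatory one. CD80 and CD86, also called B7-1 and B7-2, are its ligands on dendritic cells, macrophages and B cells. CTLA4 appears on activated and regulatory T cells, binds the same ligands more tightly than CD28 does and restrains the response. ICOS is an inducible relative of CD28 on activated T cells, and its own ligand is ICOSLG.

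The tumours came from pet dogs and every sample came from a different animal. The treatment was an intratumoral dose of interleukin-2 and interleukin-12, each fused to a protein that binds collagen. The 3 day 2 tumours were excised 2 days after 1 dose, and the 3 day 8 tumours 8 days after 1 dose. The 4 second-dose tumours received a second dose on day 6 and were excised on day 8, which is again 2 days after the last dose. The 7 untreated tumours were archived sarcomas of dogs that received no cytokine, so archiving and treatment cannot be told apart. All tissue was formalin-fixed and paraffin-embedded. By sarcoma type, day 2 tumour B was a myxosarcoma, day 8 tumour A arose from the perivascular wall, and the other 4 of these 6 arose from the peripheral nerve sheath. The second-dose group held 3 peripheral nerve sheath tumours and 1 fibrosarcoma, and the untreated group held 3 peripheral nerve sheath tumours and 4 perivascular wall tumours. Tumours are named by the replicate letters of the labels.

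Endogenous counts summed to between 126997 and 1752729 per tumour. The lowest totals were 126997 in day 2 tumour C and 205118 in second-dose tumour D, and the other 15 tumours had at least 1016527. Levels below are normalized counts, which are raw counts scaled so that the geometric mean of the 20 housekeeping probes is equal in all tumours. The scaling factor was 7.81 in day 2 tumour C and 8.78 in second-dose tumour D. Before scaling, the housekeeping probes had geometric means of 61.9 to 281 counts in day 2 tumours, against 489 to 686 in untreated tumours, so every day 2 tumour was scaled up more than every untreated tumour. Second-dose tumour B, at 297, was also below all untreated tumours. Folds under TMM scaling are given beside the results for this reason. The background limit of a tumour is the mean plus 2 SD of its 8 negative control probes. After scaling this limit was 163 in day 2 tumour C and 338 in second-dose tumour D, against 12.6 to 66.1 in the other tumours. A normalized count in those 2 tumours can therefore be high while the raw count is close to background, and results are given with and without them. Matrix and fibroblast genes, 6 in number, summed to at least 34567 normalized counts in every tumour, and the epithelial markers EPCAM and CDH1 to at most 1080.

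By the RefSeq annotation of the UU_Cfam_GSD_1.0 dog genome, CD28, CTLA4 and ICOS are consecutive protein-coding genes. CTLA4 is the 1 gene between CD28 and ICOS. CD80 and CD86 share a chromosome, with 23 protein-coding genes between them. The transcript accession of all 5 probes was found in that annotation. The target of the probe lies at base 320 of the transcript for CD28, 1370 for CTLA4, 518 for ICOS, 705 for CD80 and 20 for CD86, as the probe identifiers give it.

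With housekeeping scaling, day 2 tumours held more RNA of the 3 T cell receptors and of CD86 than untreated tumours, and second-dose tumours held more of all 5. Under TMM scaling CTLA4 and CD86 on day 2, and CD80 and CD86 after the second dose, did not pass an adjusted p of 0.05. Among peripheral nerve sheath tumours alone none of the 5 passed in either comparison. Day 8 tumours after 1 dose did not differ detectably from untreated tumours in any of the 5. In bulk tissue a change in the number of cells of a type and a change in RNA per cell cannot be told apart.

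CD28 is the receptor that lowers the threshold of T cell activation. Its normalized counts were 91.6, 51.7 and 164 in day 2 tumours A, B and C. They were 15.0, 23.9 and 14.7 in day 8 tumours. In second-dose tumours A to D they were 35.3, 323, 31.0 and 299, against a lowest, median and highest of 2.12, 15.4 and 23.7 in untreated tumours. Every day 2 and every second-dose tumour was above every untreated tumour, while day 8 and untreated tumours overlapped. CD28 was the weakest of the 5 signals: 6 of the 7 untreated tumours were not above their background limit. Its raw counts were 21 to 53 in day 2 tumours, 34 to 198 in second-dose tumours and 3 to 27 in untreated tumours. Day 2 tumour B, second-dose tumour D and 2 day 8 tumours were also not above background. A fold change of CD28 against untreated tumours thus compares with a level near background.

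ICOS appears on T cells after activation. Its normalized counts were 349, 212 and 203 in day 2 tumours and 17.1, 40.9 and 58.8 in day 8 tumours. In second-dose tumours A to D they were 101, 388, 103 and 500, against 4.40, 16.3 and 82.6 as the lowest, median and highest of untreated tumours. Day 2 and second-dose tumours lay above all untreated tumours and above all day 8 tumours. ICOS was below the background limit in 3 untreated tumours and 1 day 8 tumour. The highest untreated tumour was F, a peripheral nerve sheath tumour with 94 raw counts, and the other 6 untreated tumours were at 26.7 or less.

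CTLA4 restrains T cells that have been activated. Its normalized counts were 121, 152 and 383 in day 2 tumours and 31.4, 50.1 and 67.1 in day 8 tumours. In second-dose tumours A to D they were 40.6, 359, 63.6 and 606, against 30.1, 50.7 and 67.7 in untreated tumours. Day 2 tumours lay above all untreated tumours, and second-dose tumours A and C lay inside the untreated range. Raw CTLA4 counts differed far less between groups: they were 49 to 88 in day 2 tumours, 46 to 73 in day 8 tumours and 41 to 77 in untreated tumours. In second-dose tumours they were 54 to 80 in A, C and D, and 220 in B. All 17 tumours were above background for CTLA4.

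**Figure D1:**
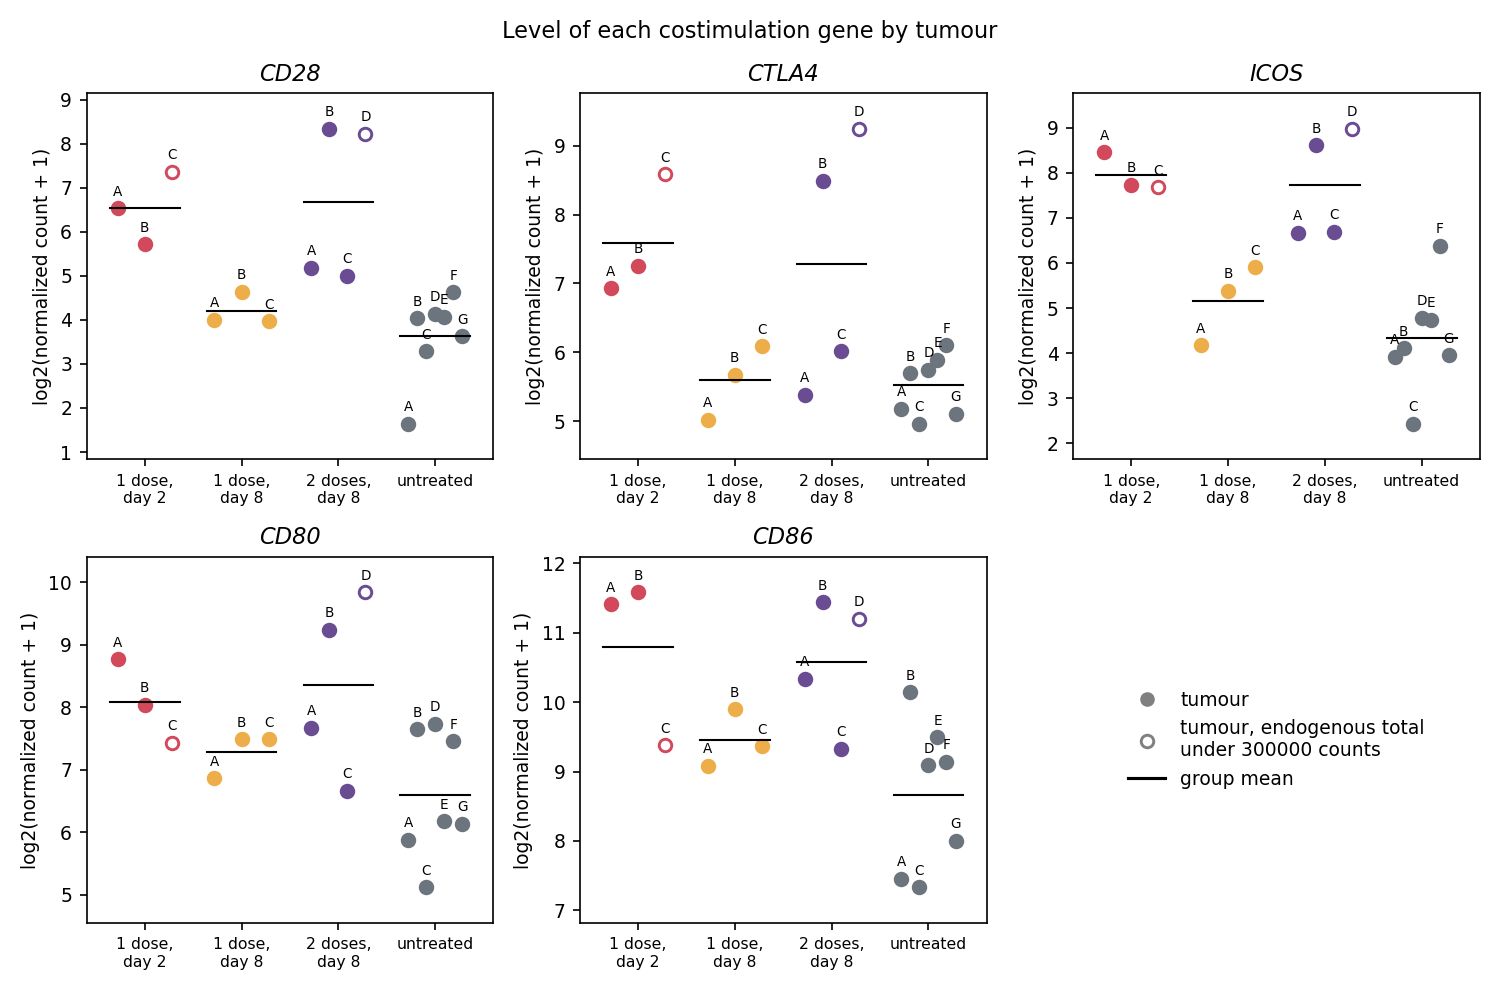
Level of each of the 5 genes in each tumour, as log2(normalized count + 1), by group; letters are replicates, open circles are the 2 tumours with an endogenous total under 300000 counts, and lines are group means. CD28 and ICOS are higher in every day 2 and second-dose tumour than in every untreated tumour, and within the second-dose group tumours B and D lie above A and C for all 5 genes.

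CD80 is the ligand induced on activated antigen-presenting cells. Its normalized counts were 435, 262 and 172 in day 2 tumours and 115, 178 and 178 in day 8 tumours. In second-dose tumours A to D they were 203, 602, 100 and 913, against 33.8, 71.2 and 212 in untreated tumours. The groups overlapped: untreated tumours B, D and F, at 175 to 212, were above the lowest tumour of each treated group.

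CD86 is present on resting antigen-presenting cells and rises on activation. It had the highest counts of the 5 probes, and counts of different probes are not levels on a common scale. Its normalized counts were 2723, 3067 and 664 in day 2 tumours and 541, 955 and 659 in day 8 tumours. In second-dose tumours A to D they were 1291, 2784, 642 and 2362, against 160, 546 and 1128 in untreated tumours. Day 2 tumours A and B and second-dose tumours A, B and D were above all untreated tumours, and the others were not. The 2 low-count tumours were on opposite sides here, since day 2 tumour C was the lowest of its group and second-dose tumour D was high.

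**Figure D2:**
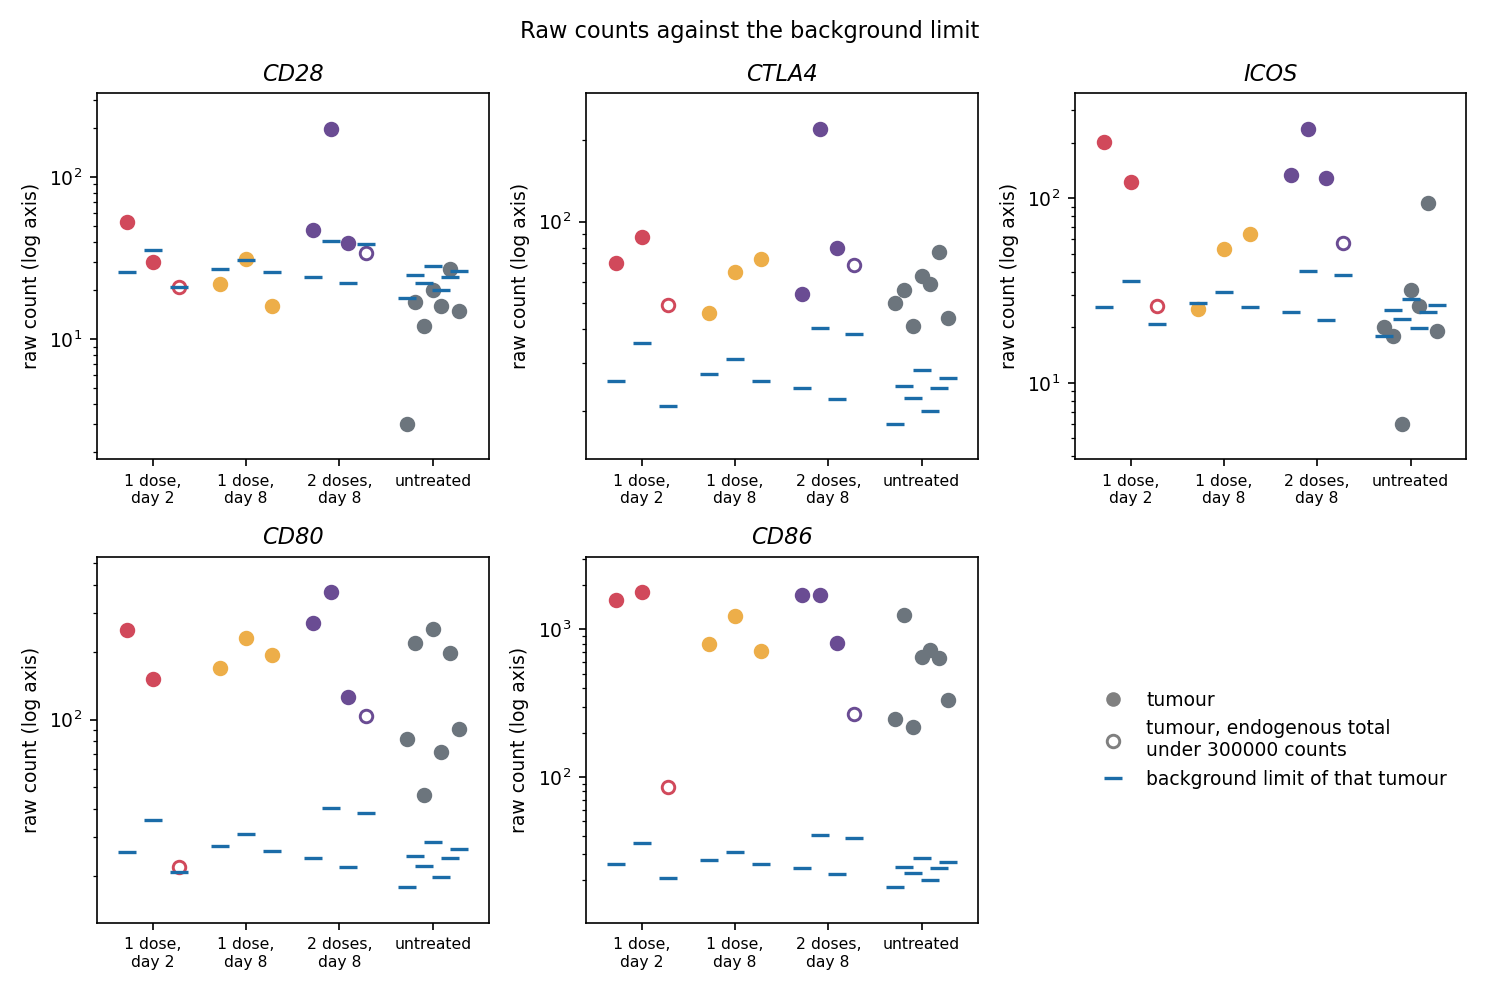
Raw counts of each probe in each tumour on a log axis, by group, with the background limit of the same tumour as a blue bar; open circles are the 2 tumours with an endogenous total under 300000 counts. CD28 sits at or under the limit in most untreated and day 8 tumours, and raw CTLA4 counts lie between 41 and 88 in every tumour except second-dose tumour B, at 220.

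Untreated tumours also differed among themselves. CD86 ran from 160 to 719 in the 4 perivascular wall tumours and from 255 to 1128 in the 3 peripheral nerve sheath tumours. CTLA4 varied least of the 5 on the log2 scale, with an SD of 0.44 (n = 7). Its normalized counts had an SD of 14.2 around a mean of 46.9. The ranges of the 2 tumour types overlapped for all 5 genes.

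In the comparison of day 2 with untreated tumours, 4 of the 5 genes passed an adjusted p of 0.05 in edgeR's quasi-likelihood test, all higher. On the same rule 47.8% of the 724 tested probes were higher and 2.62% lower, so a call was common on this panel. ICOS had the largest log2 fold change of the 5, 3.28 with a standard error (SE) of 0.67 (adjusted p = 0.00130). CD28 rose by 2.89 (SE 0.69, adjusted p = 0.00327), CTLA4 by 2.19 (SE 0.62, adjusted p = 0.00863) and CD86 by 2.09 (SE 0.58, adjusted p = 0.00771). CD80 was at 1.32 (SE 0.62) and did not pass (adjusted p = 0.0831), with a 95% interval from 0.02 to 2.62. The groups did not overlap for CD28, CTLA4 and ICOS, which was also true, in the same direction, of 30.9% of the tested probes.

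The scaling set how many of the 5 were called. With housekeeping scaling the median of all tested probes lay 1.23 log2 above untreated on day 2, and with TMM, which scales on most probes, 0.25 above. Under TMM, CD28 at 1.95 (edgeR adjusted p = 0.0141) and ICOS at 2.33 (adjusted p = 0.00432) passed. CTLA4 at 1.24 (adjusted p = 0.0577), CD86 at 1.19 (adjusted p = 0.0514) and CD80 at 0.38 (adjusted p = 0.533) did not, against 23.5% of probes called higher and 15.7% lower. Without the 2 low-count tumours and with housekeeping scaling, CD28 was at 2.41 (adjusted p = 0.0207), ICOS at 3.41 (adjusted p = 0.00292) and CD86 at 2.51 (adjusted p = 0.00551), against 36.5% of probes called higher. CTLA4 then lost its call, at 1.54 (adjusted p = 0.0563), and it was also not called when day 2 tumour C alone was left out (adjusted p = 0.0921). With TMM and without those tumours, ICOS at 2.39 (adjusted p = 0.00952) and CD86 at 1.54 (adjusted p = 0.0278) passed and CD28 at 1.37 did not (adjusted p = 0.0813), against 20.3% of probes. ICOS was the gene called on day 2 under each of these 4 fits. With sarcoma type as a covariate CD28 at 2.94 (adjusted p = 0.0294) and ICOS at 2.81 (adjusted p = 0.0279) were called, against 24.9% of probes. Day 2 tumour B was the only myxosarcoma, so the covariate takes up its values and that tumour adds nothing to these folds. Among peripheral nerve sheath tumours alone none of the 5 was called, with ICOS at 2.88 (adjusted p = 0.0687) and 5.52% of probes called.

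Between second-dose and untreated tumours all 5 genes were called higher, against 33.3% of the tested probes, and 0.414% of probes were lower. CD28 changed most, by 3.64 log2 (SE 0.65, edgeR adjusted p = 0.000445), followed by ICOS at 3.35 (SE 0.65, adjusted p = 0.000751) and CTLA4 at 2.48 (SE 0.58, adjusted p = 0.00337). The ligands rose less, CD80 by 1.94 (SE 0.57, adjusted p = 0.0142) and CD86 by 1.80 (SE 0.55, adjusted p = 0.0164). Whether receptors and ligands differed in this was not tested. CD28 and ICOS were the 2 genes whose groups did not overlap, as were 11.3% of all tested probes in this direction.

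Under TMM scaling CD28 at 2.72 (edgeR adjusted p = 0.000678), ICOS at 2.53 (adjusted p = 0.00110) and CTLA4 at 1.50 (adjusted p = 0.0221) kept their calls, against 21.5% of probes called higher and 4.97% lower. The median of all tested probes lay 0.63 log2 above untreated with housekeeping scaling and at -0.05 with TMM. CD80 at 1.10 (adjusted p = 0.0688) and CD86 at 1.12 (adjusted p = 0.0659) did not. Without the 2 low-count tumours CD80 lost its call, at 1.36 (adjusted p = 0.117), and the other 4 were called, against 24% of probes. With TMM as well, CD28 at 2.34 and ICOS at 2.20 were called, and CTLA4 at 0.84 was not (adjusted p = 0.144), against 16.3% of probes. CD80 and CD86 each lost their call without second-dose tumour B (adjusted p = 0.0598 and 0.0822) or without D (adjusted p = 0.111 and 0.0593). With sarcoma type as a covariate 1 gene was called, CD28 at 2.97 (adjusted p = 0.0372), with ICOS at 2.31 (adjusted p = 0.0760) and 7.73% of probes called. Second-dose tumour D was the only fibrosarcoma, so it adds nothing to the folds of that fit. Among peripheral nerve sheath tumours alone 0 of 5 genes and 0 of all probes were called by edgeR, with 150 probes at an unadjusted p under 0.05.

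**Figure D3:**
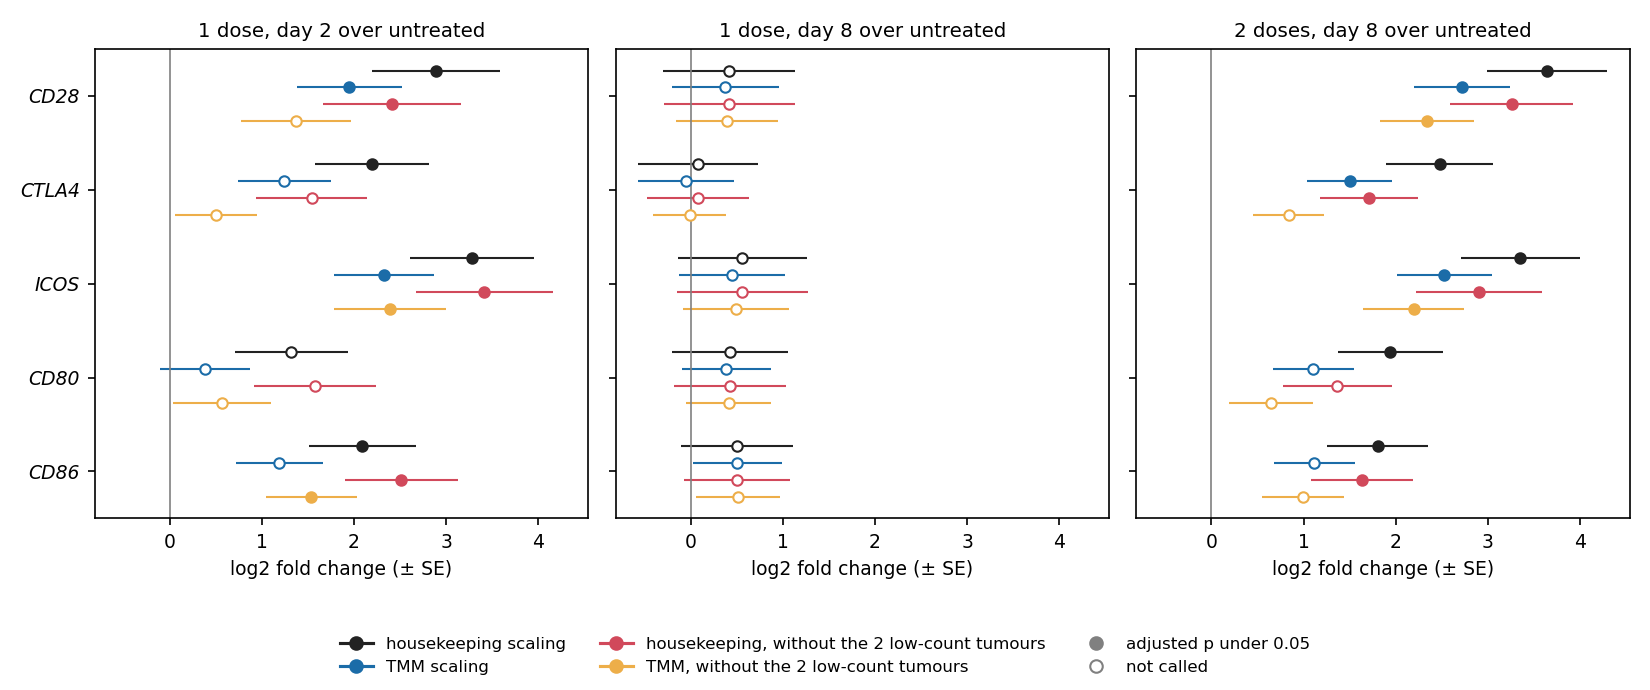
Log2 fold change over untreated tumours (points) with its SE (bars) for the 5 genes, in the day 2, day 8 and second-dose groups, under 4 fits by edgeR; filled points have an adjusted p under 0.05. CD28 and ICOS stay to the right of the others in the second-dose group, and no point is filled on day 8.

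Day 8 tumours after 1 dose gave log2 fold changes over untreated of 0.42 for CD28, 0.08 for CTLA4, 0.56 for ICOS, 0.43 for CD80 and 0.50 for CD86 (edgeR adjusted p from 0.984 to 0.994). None was called, and neither was any other probe, 0% of the 724. At an unadjusted p under 0.05 there were 33 probes and none of the 5, and DESeq2 and limma called 0 probes. The intervals were wide: for ICOS the 95% interval ran from -0.92 to 2.04, and for CTLA4 from -1.29 to 1.45. These intervals do not exclude rises up to their upper bounds.

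Set directly against day 2, day 8 tumours had less ICOS, by -2.72 log2 (SE 0.89, edgeR adjusted p = 0.0451), the 1 call of 5, where 19.2% of the probes were called lower. CD28 was at -2.47 (adjusted p = 0.0595), CTLA4 at -2.12 (adjusted p = 0.0675), CD86 at -1.59 (adjusted p = 0.115) and CD80 at -0.89 (adjusted p = 0.375). All 3 receptors were lower in every day 8 tumour than in every day 2 tumour, as were 38% of the tested probes. CD28 was not above background in day 2 tumour B or in day 8 tumours A and C, and ICOS was not in day 8 tumour A. The ICOS call was lost without any single day 2 or day 8 tumour, without untreated tumour E or G, without both low-count tumours (-2.85, adjusted p = 0.0556, 12.3% of probes called lower) and under TMM (-1.88, adjusted p = 0.0820, 7.46% of probes).

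A second dose given on day 6 was compared with a single dose at the same excision day. Second-dose tumours had more CD28 than day 8 tumours, by 3.22 log2 (SE 0.89, edgeR adjusted p = 0.0348), and 9.39% of the probes were called higher. ICOS was at 2.79 (adjusted p = 0.0502), CTLA4 at 2.40 (adjusted p = 0.0579), CD80 at 1.51 (adjusted p = 0.168) and CD86 at 1.30 (adjusted p = 0.221). CD28 and ICOS were higher in all 4 second-dose tumours than in all 3 day 8 tumours, which held for 15.9% of the probes. CD28 was not above background in second-dose tumour D, whose scaled limit was 338, or in day 8 tumours A and C. ICOS was not above background in day 8 tumour A. The separation thus rests in part on background counts. Under TMM CD28 was called at 2.34 (adjusted p = 0.0447), against 6.63% of probes. The CD28 call was lost without any single day 8 tumour and without second-dose tumour B or D. Without both low-count tumours it was at 2.84 (adjusted p = 0.104), and 0 probes were then called by edgeR, with 175 at an unadjusted p under 0.05.

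Second-dose and day 2 tumours were both taken 2 days after the last dose. The log2 differences of second-dose over day 2 tumours were 0.75 for CD28, 0.28 for CTLA4, 0.07 for ICOS, 0.62 for CD80 and -0.29 for CD86, and none passed (edgeR adjusted p from 0.830 to 0.977). For ICOS the 95% interval ran from -1.59 to 1.73. No probe passed in this comparison by edgeR (0% of 724, with 88 at an unadjusted p under 0.05), while DESeq2 called 6 probes and limma 1. In order of mean log2 level, second-dose and day 2 tumours came above day 8 tumours, and day 8 above untreated tumours, for all 5 genes. Second-dose tumours were highest for CD28 and CD80, and day 2 tumours for CTLA4, ICOS and CD86. No neighbours in these orders by mean log2 level differed past the test. The edgeR differences put second-dose over day 2 tumours for CTLA4 and ICOS, the reverse of that order. By edgeR, day 2 and day 8 tumours are then neighbours for ICOS, and they differed (adjusted p = 0.0451).

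The second-dose group was the most uneven. Tumours B and D had more of each of the 5 genes than A and C: for CD28, 323 and 299 normalized counts against 35.3 and 31.0. The CD28 value of D was under the background limit of that tumour, 338 normalized counts, so it is not a measure of a higher level there. CD80 was at 602 and 913 in B and D, against 203 and 100 in A and C. IFNG, the T cell and NK cell cytokine induced by interleukin-12, was at 1756 and 1686 in B and D and at 36.8 and 23.9 in A and C. D is a low-count tumour and the fibrosarcoma, and B is a peripheral nerve sheath tumour with a total of 1016527 counts. A and C are peripheral nerve sheath tumours too. This split was seen in the values and was not tested.

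**Figure D4:**
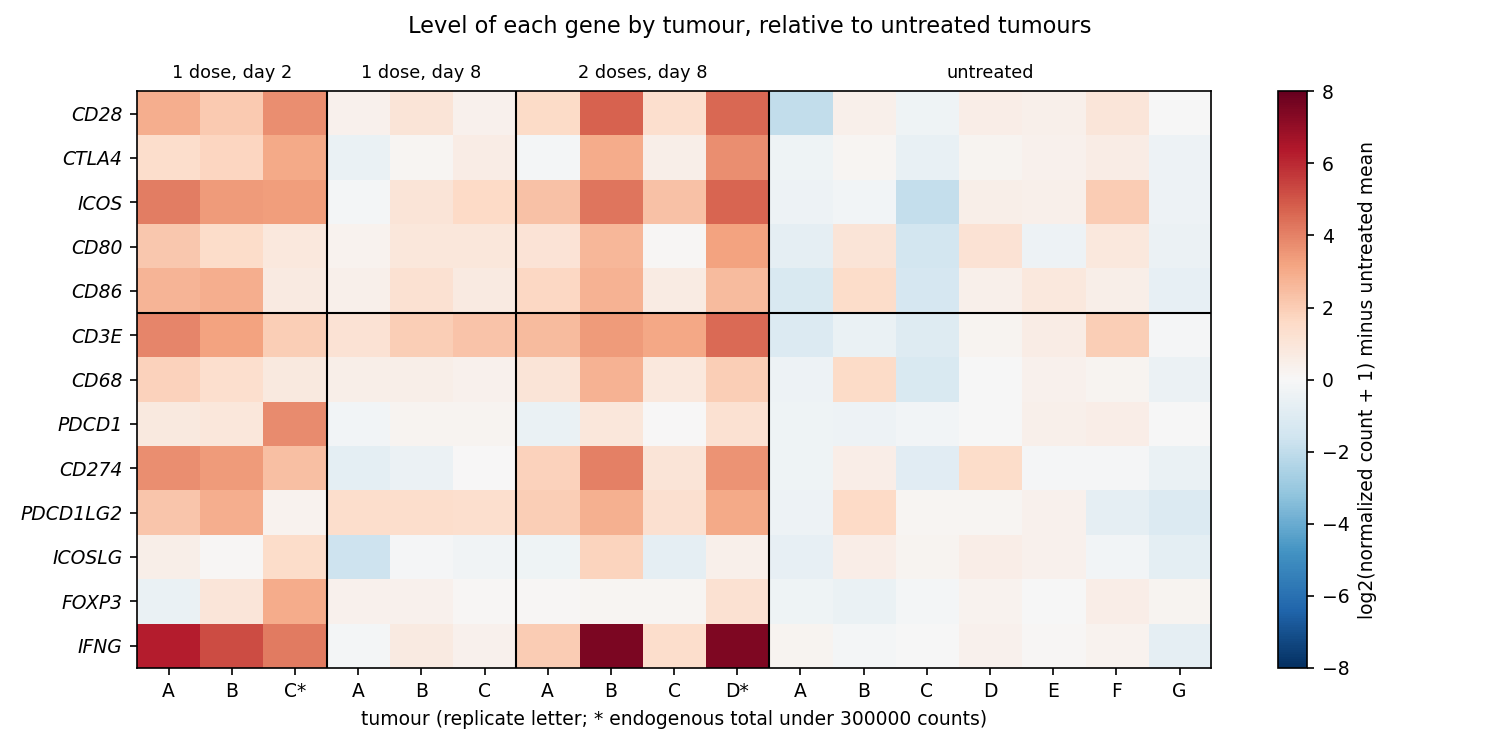
Log2(normalized count + 1) of the 5 genes (above the line) and of 8 further genes, minus the mean of the untreated tumours, in each tumour; red is higher and blue lower. Second-dose tumours B and D are darker than A and C for the 5 genes and for IFNG, and PDCD1 stands out in day 2 tumour C, where it had 523 normalized counts.

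The T cell markers moved with the receptors. CD3E, a chain of the T cell receptor complex, rose by 2.89 (SE 0.60, edgeR adjusted p = 0.00140) on day 2 and by 3.23 (SE 0.58, adjusted p = 0.000445) after the second dose. Of the 9 T cell markers tested, 7 were higher on day 2 (median log2 change 2.39, against 1.23 over all probes, of which 47.8% were higher) and all 9 after the second dose (median 3.12, against 0.63 and 33.3%). Under TMM these counts were 5 and 7, and without the low-count tumours 7 and 8. The 9 markers summed to 1702 to 2248 normalized counts in day 2 tumours, 553 to 796 in day 8 tumours and 1293 to 5013 in second-dose tumours, against 189 to 808 in untreated tumours. None had a raw count of 0 in any tumour, and the lowest was 2, in a day 2 tumour. Negative control probes averaged 9.4 to 15.8 counts, so a raw count above 0 does not show detection. CD3E was not above background in day 2 tumour C. The part of T cell content in the receptor changes was not tested by a model.

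Ratios of 2 probes within a tumour depend little on the scaling between tumours, except for low probes, since 1 was added to each normalized count. For 9 ratios in 6 comparisons, an exact two-sided permutation test over tumours called 0 of 54 after Benjamini-Hochberg adjustment, and 6 had an unadjusted p under 0.05. The smallest p that 3 against 7 tumours allow is 0.00833, and for 4 against 7 it is 0.00303. Between 4 and 3 tumours it is 0.0286. Between 3 and 3 tumours it is 0.1, so the comparison of day 8 with day 2 could not pass. None of these smallest values passes by itself once adjusted over the 54 tests. A result of 0 calls therefore does not show that the ratios were unchanged.

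All 6 of these ratios were lower in treated than in untreated tumours, and 5 had CTLA4 on top. The log2 ratio of CTLA4 to CD28 averaged 0.59 ± 0.49 in second-dose tumours (SD, n = 4) and 1.89 ± 0.74 in untreated tumours (n = 7), with all 4 below all 7 (exact p = 0.00303, adjusted p = 0.164). CD28 was not above background in 6 of those 7 untreated tumours or in second-dose tumour D, so the size of this difference rests on background counts. It was -1.29 as given, -0.76 with a pseudocount of 10 and -2.35 with negative controls subtracted. The log2 ratio of CTLA4 to ICOS averaged -0.36 ± 1.22 in day 2 tumours (SD, n = 3) and -0.45 ± 0.68 in second-dose tumours (n = 4), against 1.19 ± 0.83 in untreated tumours (n = 7). The exact p was 0.0167 on day 2 and 0.00909 after the second dose (adjusted p = 0.225 and 0.164). The groups overlapped for CTLA4 to ICOS in both, and ICOS was not above background in 3 untreated tumours.

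Day 8 tumours were also set against untreated tumours per CD3E. The log2 ratio of CTLA4 to CD3E averaged -1.27 ± 0.08 in day 8 tumours (SD, n = 3) and 0.46 ± 0.73 in untreated tumours (n = 7), with all 3 below all 7 (exact p = 0.00833, adjusted p = 0.164). For ICOS to CD3E the averages were -1.71 ± 0.32 in day 8 tumours and -0.73 ± 0.49 in untreated tumours (exact p = 0.0250, adjusted p = 0.225). CD3E itself was at 74.4, 130 and 160 normalized counts in day 8 tumours, against 14.8 to 127 in untreated tumours. CD3E was not above background in untreated tumour C. ICOS was not above background in day 8 tumour A or in untreated tumours B, C and G. The sizes of these ratio differences thus rest in part on background counts. Against the mean of the T cell markers in place of CD3E, the log2 difference of day 8 from untreated tumours was -0.17 for ICOS (exact p = 0.717) and -0.92 for CTLA4 (exact p = 0.00833, adjusted p = 0.164). In second-dose tumours the CTLA4 to CD3E ratio averaged -1.18 ± 1.18 (SD, n = 4; exact p = 0.0212, adjusted p = 0.225), and it was lower in A and C, at -2.21 and -2.18, than in B and D, at -0.01 and -0.33. The ratios of CD80 to CD86, and of each ligand to the macrophage marker CD68, gave no exact p under 0.05.

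**Figure D5:**
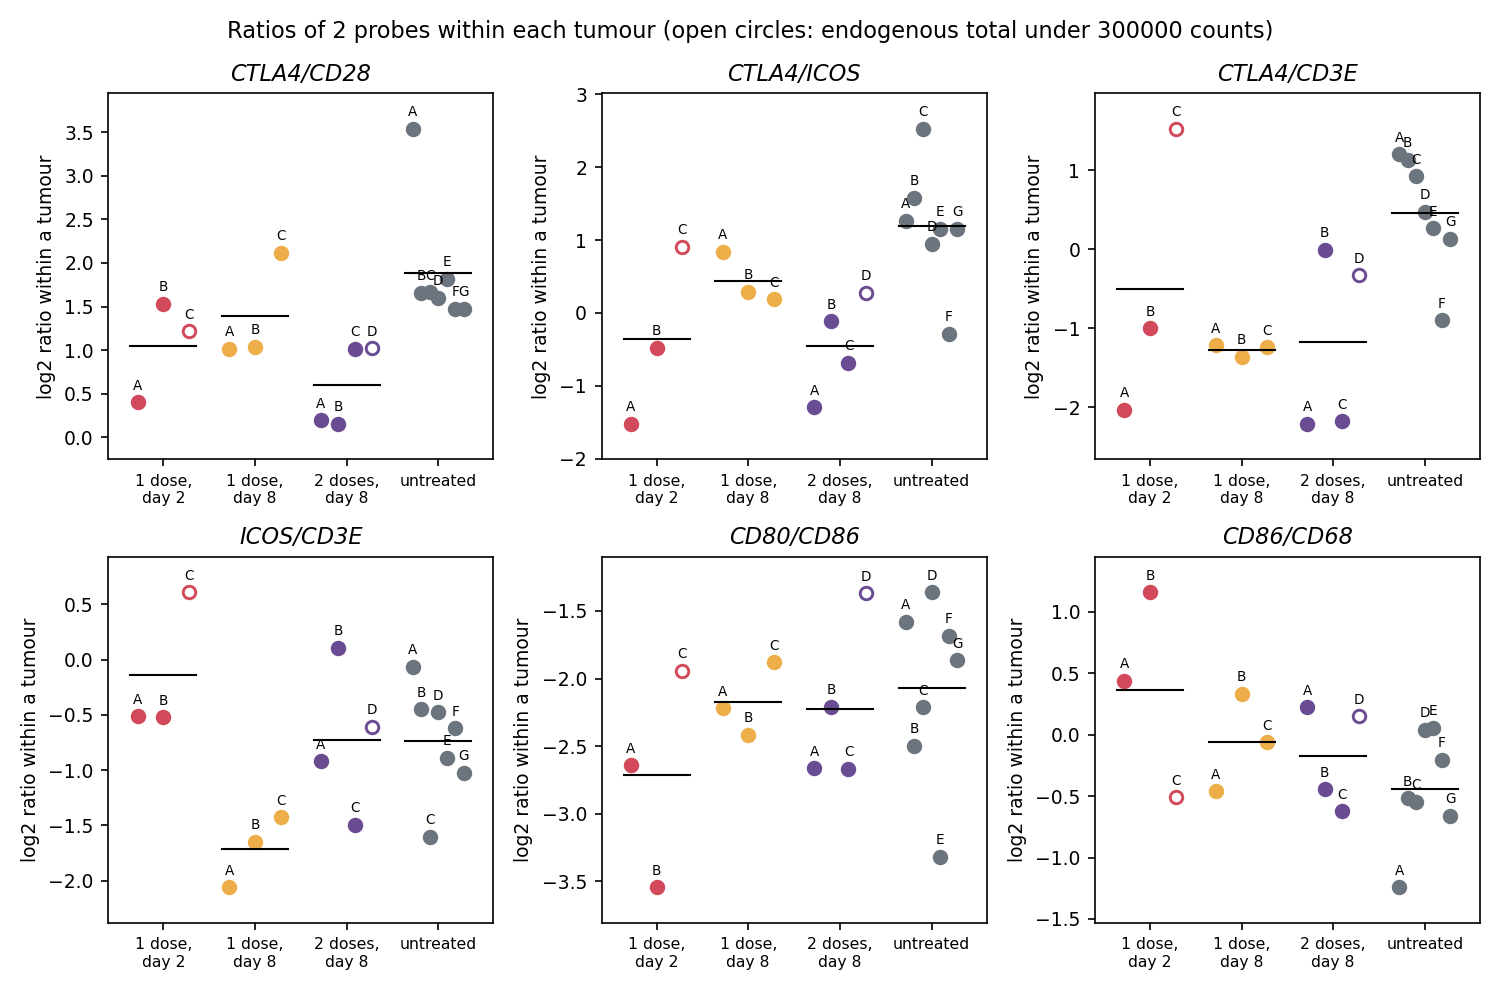
Log2 ratio of 2 probes within each tumour, by group; letters are replicates, lines are group means and open circles are the 2 tumours with an endogenous total under 300000 counts. The 4 second-dose tumours lie below the 7 untreated tumours for CTLA4 to CD28, and the 3 day 8 tumours lie below them for CTLA4 to CD3E.

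Markers of antigen-presenting cells were counted for the ligands. On day 2, 5 of 10 macrophage and monocyte markers were higher, led by C1QB at 2.69 and C1QA at 2.65, complement genes of macrophages, with MSR1 at 1.54. CD163 at -0.65 and MARCO at -0.77 went the other way and were not called, and CD14 was at 0.17. The median of the list was 1.26, against 1.23 over all probes. After the second dose 3 of 10 were higher, C1QB at 2.32, C1QA at 2.10 and CD68 at 1.62. These counts are near the shares of all probes called higher, 47.8% on day 2 and 33.3% after the second dose. Under TMM 2 were higher on day 2, where MSR1 at 0.67 was not called (adjusted p = 0.335), and 2 were higher and 1 lower after the second dose. Of 8 dendritic cell markers, 5 were higher on day 2 (median 2.01) and 3 after the second dose (median 1.36), against the same shares, and under TMM 3 and 2 were. Without the low-count tumours 4 and 2 were. CD83 at 0.48, FLT3 at 0.72 and ITGAX at 1.30 were not called on day 2. Under TMM they were at -0.47, -0.28 and 0.33. IRF8, a factor needed for type 1 conventional dendritic cells, was at 3.68 on day 2 and 2.80 after the second dose, and XCR1, a chemokine receptor of the same cells, at 2.70 and 2.80. CCR7, which guides mature dendritic cells and naive T cells to lymph nodes, was at 3.34 on day 2 (edgeR adjusted p = 0.00275) and at 1.59 after the second dose (adjusted p = 0.111). Of 5 B cell markers tested, 5 were higher on day 2 and 2 after the second dose, against 47.8% and 33.3% of all probes. Under TMM 4 and 0 were, and without the low-count tumours 5 and 0. The macrophage markers summed to 14792 to 51258 normalized counts in day 2 tumours, 9600 to 15007 in day 8 tumours and 10600 to 35866 in second-dose tumours, against 2251 to 23303 in untreated tumours. No marker of these lists had a raw count of 0, which does not show detection, since negative control probes averaged 9.4 to 15.8 counts. The part of these markers in the CD80 and CD86 values was not tested.

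Of 9 further genes listed beside the CD28 and B7 superfamily, 7 were higher and 1 lower on day 2, and 5 were higher and 1 lower after the second dose. The list includes TNFRSF14, a TNF receptor family gene, and CD160, which are not members of that superfamily. Both were among the genes higher on day 2, TNFRSF14 at 2.30. Of all probes 47.8% were higher and 2.62% lower on day 2, and 33.3% higher after the second dose. Under TMM 5 were higher and 1 lower on day 2, and 4 higher and 1 lower after the second dose. CD274, which encodes PD-L1, was at 3.08 (edgeR adjusted p = 0.000571) on day 2 and at 2.88 (adjusted p = 0.000545) after the second dose. BTLA, an inhibitory receptor of lymphocytes, was at 2.64 on day 2, and CD160, a receptor of NK and T cells, at 2.58 on day 2 and 3.11 after the second dose. CD276, also called B7-H3 and often present on tumour cells, was the 1 gene lower, by -1.17 (adjusted p = 0.00953) on day 2 and by -0.82 (adjusted p = 0.0418) after the second dose, where it was not called without the low-count tumours (adjusted p = 0.113). PDCD1, the PD-1 receptor, was called on day 2 at 2.49 (adjusted p = 0.00178) and was at 0.83 (adjusted p = 0.0880) without the low-count tumours. After the second dose it was at 0.47 and under TMM at -0.27, neither called. ICOSLG, the ligand of ICOS, did not pass in either group, at 0.69 (adjusted p = 0.281) on day 2 and 0.53 (adjusted p = 0.445) after the second dose, and under TMM both were at -0.27.

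Of 8 tested genes of the TNF receptor costimulatory family, 5 were higher on day 2 and 3 after the second dose, and 0 lower, against 47.8% and 33.3% of all probes higher. Under TMM 2 were higher in each group. CD40, through which T cells license antigen-presenting cells, was at 3.22 on day 2 (edgeR adjusted p = 0.000471) and 2.28 after the second dose (adjusted p = 0.00337). Its ligand CD40LG, made by activated helper T cells, was at 2.64 (adjusted p = 0.00275) and 3.29 (adjusted p = 0.000430). Both were also called under TMM in both groups. CD27, a costimulatory receptor of T cells, was at 1.38 on day 2 and 1.91 after the second dose, and under TMM at 0.35 (adjusted p = 0.514) and 1.01 (adjusted p = 0.0574).

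Of 19 genes that act below CD28 and the T cell receptor, 5 were higher on day 2 and 4 after the second dose, with medians of 0.53 and 0.26, which is fewer than the 47.8% and 33.3% of all probes called higher. LCK, the kinase that starts T cell receptor signalling, was at 2.46 after the second dose (SE 0.43, edgeR adjusted p = 0.000385). PIK3CG, a PI3-kinase of leukocytes, was at 2.20 (adjusted p = 0.00138). NFKB1, RELA and AKT1, which most cell types express, were at 0.36, -0.19 and -0.36 after the second dose and were not called, and NFKB1 was at -0.25 under TMM. Under TMM 5 of the 19 genes were called lower on day 2 and 3 higher.

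Follicular helper T cells depend on ICOS. Of 9 tested genes of these cells, 5 were higher on day 2 and 1 after the second dose, against 47.8% and 33.3% of all probes. The day 2 count was 2 without the low-count tumours, and 3 higher with 2 lower under TMM. The 1 gene after the second dose was SH2D1A, the signalling adaptor SAP, at 3.46 (SE 0.53, edgeR adjusted p = 0.000187). CXCL13, the B cell chemokine of follicles, was at 2.39 on day 2 (adjusted p = 0.00896, and 1.39 under TMM with adjusted p = 0.0698) and at 0.02 after the second dose (adjusted p = 0.981, and -0.72 under TMM). BCL6, the factor that defines the lineage, was at -0.26 after the second dose, not called, and at -0.99 under TMM (adjusted p = 0.0389). Of 3 regulatory T cell markers, IL2RA, the interleukin-2 receptor alpha chain, was higher in both groups, at 3.06 on day 2 and 2.77 after the second dose, where it was not called without the low-count tumours (adjusted p = 0.0521). FOXP3, the factor that defines these cells, was at 1.70 on day 2 (adjusted p = 0.0130), at 0.37 without the low-count tumours (adjusted p = 0.465) and at 0.38 after the second dose (adjusted p = 0.611, and -0.27 under TMM). FOXP3 was above background in 1 of 3 day 2 tumours, with raw counts of 10 to 30, and in 2 of 4 second-dose tumours. TNFRSF18, also in this list, was at 0.84 on day 2 (edgeR adjusted p = 0.188) and at -0.19 under TMM. In day 8 tumours no gene of these lists was called against untreated tumours.

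Markers of other tissue moved on day 2 as well. Of 6 matrix and fibroblast genes 2 were lower against untreated tumours, FN1, which encodes fibronectin, at -1.63 (edgeR adjusted p = 0.0377) and THY1, a surface protein of fibroblasts, at -1.89 (adjusted p = 0.0252). Of all probes 2.62% were lower. Under TMM 4 of the 6 were lower, against 15.7% of all probes, and without the low-count tumours 0 of the 6. Of 3 Schwann cell and neural genes NCAM1, a neural adhesion molecule, was lower, at -2.62 (adjusted p = 0.0379). The others of that list, S100B at 1.81 and SOX10 at 1.23, went the other way and were not called. Of 5 lymph node and follicle genes 4 were higher on day 2, against 47.8% of all probes, with CCL21, the chemokine that draws CCR7-bearing cells, at 3.60 (adjusted p = 0.00814). Under TMM 2 of the 5 were higher, against 23.5% of all probes. Without the low-count tumours it was also 2, against 36.5%. That list summed to 1937 to 5076 normalized counts in day 2 tumours, 178 to 943 in day 8 tumours and 273 to 1497 in second-dose tumours, against 232 to 1551 in untreated tumours. After the second dose 0 genes of these 3 lists were called, against 33.3% of all probes higher and 0.414% lower. Under TMM 2 matrix genes were lower, against 4.97% of all probes. None of 3 endothelial and 2 epithelial markers was called in either group. The part of these shifts in the values of the 5 genes was not tested.

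Over the 17 tumours the probes most like each member were found by Pearson's correlation of log2 levels, as a description with no test. All 17 points share the group differences and the housekeeping scaling, and the median correlation with all other tested probes was already 0.48 to 0.59. For CD28 the highest were IL21R at 0.96 and TBX21 at 0.95, a cytokine receptor and a transcription factor of T and NK cells, then CD5, CXCR6 and TOX. For ICOS they included CCR2 at 0.97 and TRAT1 at 0.96, then HLA-DRB1 and IL2RB. For CTLA4 they were IL27 at 0.96 and IL12RB1 at 0.96, then LOC483397, CD5 and TNF. For CD80 they included SYK at 0.94 and PTPRC at 0.94, then CCR1 and JAK3. For CD86 they were FCER1G at 0.97 and B2M at 0.96, an Fc receptor chain of myeloid cells and the MHC class I light chain, then PSMB9, PYCARD and NCF4.

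With the group means removed, the list changed for CD28, which was then most like BLK at 0.94, with CMKLR1, NFATC2, FAS and ITGB2. CTLA4 was most like TAL1 at 0.95, then LOC483397, IL12RB1, IL27 and CD5. ICOS was most like RUNX1 at 0.96, and GZMK, CCR2 and CXCR6 were also among its nearest probes. Among the probes nearest to CD80 were SYK at 0.95, CCL8, IL2RG and PTPRC. CD86 was most like PSMB9 at 0.96, then TAP1, FCER1G, NCF4 and B2M.

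Among the 10 pairs of members the correlation was 0.67 to 0.91 over the 17 tumours and 0.36 to 0.83 with group means removed. CD28 and CTLA4 were the closest pair in both, at 0.91 and 0.83. CTLA4 and CD86 were the farthest, at 0.67 and 0.36. With each tumour also centred on its median probe, which takes out scaling, the pairs ran from -0.24 for CTLA4 and CD86 to 0.70 for CD28 and CTLA4.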

How the data were processed

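Per the labels' protocols, RNA was extracted from fixed tissue, hybridized to the Canine IO panel and read on an nCounter digital analyzer. Raw counts of every probe were deposited with no normalization, per the file headers. A second deposited table, the authors' normalized signal, served as an alternative. How that signal was normalized, and by which nSolver version, is not given in the sources used here. A further table with 17 columns that match no label was not used.

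From the raw counts, edgeR 4.0.16 (R 4.3.3, robust quasi-likelihood F-test) was run with the 4 groups in 1 model, library size set by the housekeeping geometric mean. A probe was tested when above the mean plus 2 SD of the negative controls in at least 3 tumours, which kept 724 of 780 probes and all 5 members. P-values were adjusted by Benjamini-Hochberg over the 724 probes. Each SE was derived from the log2 change and its F statistic. Log2 levels and ratios use normalized counts plus 1. Exact permutation tests used scipy 1.17.1. limma 3.58.1 and DESeq2 1.42.0 served as alternatives. The letters mark different dogs. Deviations from group means correlated at 0.20 to 0.38 in the 4 same-letter pairs of second-dose with untreated tumours. Day 2 with untreated tumours gave 0.31 for B and 0.21 for C, and -0.03 for A. Pairs of unlike letters were not computed, so pairing by letter was not tested. The scripts were tested on simulated data. The number of tumours and the counts limit precision, and p-values measure the spread between dogs. The members and lists were chosen with earlier results of these data known. The rule named the 5 members, 8 companion genes, up to 3 called genes with the largest change per list, and the 5 most correlated probes, of which some are not reported here. NFKB1, RELA, AKT1, CCR7, CD27, BCL6, CXCL13 and TNFRSF14 are named beyond that rule and were chosen after their values were seen. The same holds for uncalled markers named beside called ones, such as CD83, FLT3, ITGAX and TNFRSF18. Matrix, endothelial, neural and epithelial lists were fixed for the identity of the tissue.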

Additional observations from a re-analysis of the deposited data

Results flagged for a closer look

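In untreated tumours the log2 ratio of CTLA4 to CD28 was 3.54 in tumour A, and the next highest value was 1.82. The gap was 0.833 of the range, above Dixon's limit for 7 samples. CD28 had 3 raw counts there, below its background limit. This was 1 of 28 such checks, and chance marks about 1 group in 20.

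The change of CD28 with dosing differed between groups: second-dose tumours were higher than day 8 tumours by 3.22 log2 (edgeR adjusted p = 0.0348), with all 4 above all 3. The change of ICOS differed between times after 1 dose: it was lower on day 8 than on day 2 by -2.72 log2 (edgeR adjusted p = 0.0451), with all 3 below all 3. CD28 was not above background in second-dose tumour D or in day 8 tumours A and C, and ICOS was not in day 8 tumour A. Without the low-count tumours the differences were 2.84 for CD28 (adjusted p = 0.104) and -2.85 for ICOS (adjusted p = 0.0556).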

How the results depend on the processing

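Every choice was varied on its own, except that leaving out both low-count tumours together with TMM was added after seeing the data. Of the 5 genes, those called between day 2 and untreated tumours numbered 4, but 2 under TMM, median-of-ratios scaling, a sarcoma type covariate, or TMM without both low-count tumours, and 0 among peripheral nerve sheath tumours. Probes called numbered 365, but 229 with negative controls subtracted, 180 with the covariate and 40 among nerve sheath tumours. For second-dose against untreated tumours, 5 genes became 3 under TMM or median-of-ratios, 2 with TMM without low-count tumours, 1 with the covariate and 0 among nerve sheath tumours, and 244 probes became 129, 56 and 0 in the last 3.

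For day 8 against day 2, the 1 gene became 0 under TMM, median-of-ratios, negative control subtraction, the covariate, nerve sheath tumours only and without low-count tumours (with or without TMM). It became 2 with the replicate letter as a block, which made the call for CD80 on day 2 too (2.01, adjusted p = 0.0154) and ended that for CD28 between second-dose and day 8 tumours (2.38, adjusted p = 0.161). Of 19 same-letter pairs, 8 correlated above 0.1 (-0.21 to 0.38), including all 4 of second-dose with untreated tumours, where the block kept all 5 calls (197 probes). The 142 probes became 81, 76, 45, 80, 0, 92 and 43 in the order just given. For second-dose against day 8, the 1 gene became 0 under the stricter filter, negative control subtraction, the covariate, nerve sheath tumours, both fits without low-count tumours, the replicate block and limma, and 3 under DESeq2. The 68 probes became 18 with negative controls subtracted, 19 without low-count tumours under TMM, 123 under DESeq2 and 16 under limma, and 0 without low-count tumours, with the covariate, with the block and among nerve sheath tumours. For second-dose against day 2, 0 probes became 3 with no filter, 1 with the covariate, 6 under DESeq2 and 1 under limma. The stricter filter did not test CD28.

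Directions turned for uncalled differences, and the cause was not tested. CTLA4 on day 8 against untreated was -0.046 under TMM, -0.11 under median-of-ratios and DESeq2, -0.049 with the covariate and -0.010 with TMM without low-count tumours. CD80 on day 8 against day 2 was 0.0052 under TMM. Second-dose against day 2 gave, with the covariate, -0.69 for CTLA4, -0.50 for ICOS and -0.029 for CD80, and among nerve sheath tumours -0.69, -0.50 and -0.027. With the covariate this comparison rests on nerve sheath tumours too, so these fits are not separate checks. With the block second-dose against day 2 gave -0.31 for CD28, -0.53 for CTLA4, -0.58 for ICOS and -0.25 for CD80. Limma gave -0.38 for CTLA4 and -0.19 for ICOS, and without low-count tumours ICOS was -0.51 (-0.20 with TMM) and CD80 -0.21.

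With each tumour left out in turn, genes called ranged from 3 to 4 (day 2 against untreated), 3 to 5 (second dose against untreated), 0 to 3 (day 8 against day 2) and 0 to 3 (second dose against day 8). Probes called ranged from 260 to 376, 153 to 288, 0 to 187 and 0 to 192, and for day 8 against untreated from 0 to 1 and second dose against day 2 from 0 to 28. Log2 changes that turned ranged from -0.20 to 0.32 for CTLA4 (day 8 against untreated), and in second dose against day 2 from -0.49 to 0.94 for CTLA4, -0.38 to 0.37 for ICOS and -0.71 to 0.058 for CD86. No within-tumour ratio passed the adjustment with deposited values, negative controls subtracted, a pseudocount of 10, the marker mean as denominator or no low-count tumours. The number of tumours limits the smallest p in these settings too. Among nerve sheath tumours none could pass, since 3 against 3 tumours cannot go below 0.1.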
